A study of Mus musculus with 4 samples.

Results

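The nuclear genes of oxidative phosphorylation, the respiratory chain and the ATP synthase of mitochondria, were followed in sorted tongue epithelium of mouse embryos. They were taken by symbol: the Nduf genes (complex I, 37 genes), Sdha to Sdhd (complex II, 4), Cyc1 and the Uqcr genes (complex III, 9), the genes Cox4 to Cox8 (complex IV, 18) and the Atp5 genes (complex V, 17), leaving out symbols marked as pseudogenes. This gave 85 of the 24453 genes in the files, by symbol alone. Reads were enough to test 80 of the 85. Ndufs5, Cox7b2 and Cox8c had 0 counts in every library. In these files a count of 0 sets no limit on the level, since 50 genes at 0 counts in all libraries are listed at 1 FPKM or more in at least 1; these 3 are listed at no more than 0.000884 FPKM. Cox6a2 had 1 and 2 counts in the 2KO-labelled libraries, against 0 and 13 in the control libraries. Cox8b had 0 and 1 count in the 2KO-labelled libraries, against 1 and 0 in the control libraries.

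Libraries came from EpCAM-positive cells sorted from tongues of embryonic day 16, cut so that the circumvallate papilla at the back was left out. The 2KO-labelled libraries (n = 2) carry the genotype Ring1a-/- Ring1bfl/fl K14-Cre+, in which Ring1 is lost throughout the body and Rnf2 is floxed, to be cut by a Cre recombinase driven by the keratin 14 promoter of basal epithelium. The control libraries (n = 2) are labelled only as control, and their alleles are not given. Ring1 and Rnf2 encode the catalytic subunits of Polycomb repressive complex 1, a silencer of developmental genes, and the comparison asks what its loss changes in this epithelium. Whether the 2 libraries of a group derive from different embryos is not stated, so each p-value reflects library-to-library spread that may be technical.

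In mitochondria, complexes I and II pass electrons from NADH and succinate to ubiquinone, complex III passes them on to cytochrome c, and complex IV hands them to oxygen. Complexes I, III and IV pump protons as they do so, and complex V, the ATP synthase, lets the protons flow back through a ring of c subunits to make ATP. Most subunits are nuclear genes, and a few core subunits of every complex but II are encoded in mitochondrial DNA. Several nuclear subunits exist in a widely expressed form and in a paralogous form restricted to muscle, lung, testis or low oxygen. The mitochondrially encoded subunits were not analysed here.

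The libraries held 16256569 to 20624055 counts. CPM below is the read count scaled to a TMM-adjusted library size. In the 2KO-labelled pair Ring1 had 16.8 and 15.0 CPM, against 9.01 and 8.56 CPM in the control pair (adjusted p = 0.101, edgeR). For Rnf2 the values were 62.8 and 62.4 CPM, against 33.9 and 51.2 CPM in the control pair (adjusted p = 0.126, edgeR). The targeted genes were thus not lower; counts per gene cannot reveal an excised exon, so the genotype is taken as labelled. Rn45s, the ribosomal RNA precursor, accounted for 22.9% and 20.2% of reads in the 2KO-labelled pair, against 16.7% and 15.3% in the control pair. Of 10 epithelial markers, 4 were lower in the 2KO-labelled libraries (Dsp, Perp, Krt14 and Krt5), and the 10 summed to 14648 and 15018 CPM, against 23667 and 19590.1 CPM in the control libraries. Epcam, the gene of the sorted surface molecule, was at 216 and 245 CPM, against 221 and 189 CPM. Of 16 skeletal muscle markers 15 were tested and 1, Tnni2, was lower, and Myh1 was at 0 in every library. They summed to 64.9 and 70.6 CPM in 2KO-labelled libraries, against 58.5 CPM in control replicate 1 and 420.1 CPM in control replicate 2, which thus stood apart. Immune markers summed to 55.5 and 47.8 CPM, against 24.2 and 22.3 CPM, with 1 of the 5 tested (Cd68) called higher. Cd68 made up most of that sum, at 47.1 and 39.0 CPM, against 21.3 and 11.9 CPM, and the other 9 summed to 8.33 and 8.80 CPM, against 2.99 and 10.4 CPM, with overlap. Endothelial markers summed to 53.8 and 74.9 CPM, against 35.9 and 29.1 CPM. Mesenchymal markers summed to 373 and 332 CPM, against 274 and 344 CPM, and those of Schwann cells to 145 and 185 CPM, against 209 and 135 CPM. Erythroid markers summed to 4.70 and 3.76 CPM, against 9.06 and 8.27 CPM, but this leaves out the main globins, which have 0 counts everywhere and yet FPKM values. Hbb-bs was at 16.7 and 40.1 FPKM in 2KO-labelled libraries, against 28.5 and 86.2 FPKM in the control libraries, and Hba-a1 at 13.7 and 39.3 FPKM, against 14.6 and 39.1 FPKM. The part of these differences in the results below was not tested.

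Summed per complex, transcripts of complexes I, II, III and V were lower in both 2KO-labelled libraries than in both control libraries, under each of the 4 scalings tried. Those of complex IV, taken by symbol, were higher except with total counts alone, where the groups overlapped. Of the 80 genes tested, 16 fell (20%) and 4 rose (5%) at an adjusted p under 0.05 (edgeR's quasi-likelihood test, Benjamini-Hochberg adjustment over all 15336 genes tested). Over all genes tested 4.92% fell and 7.00% rose. The median log2 fold change of the 80 genes was -0.32, and that of all genes tested was 0.01. It was negative for 60 of the 80, against 49.6% of all genes tested. Both 2KO-labelled libraries lay below both control libraries for 48 of the 80, against 28.7% of all genes tested, and above both for 8 of the 80, against 29.0% of all genes tested. For a gene picked because it passed the test, such separation is likely beforehand and adds no support. Summed over all 85 genes the level was 5733 and 6195 CPM in 2KO-labelled libraries, against 7119 and 7760.2 CPM in the control libraries, so the groups did not overlap. In bulk RNA of this kind, fewer cells of a type and less RNA per cell cannot be told apart. Without 2KO replicate 1 the median log2 fold change of the 80 genes was -0.30, and without 2KO replicate 2 it was -0.42. Without control replicate 1 it was -0.41. It was -0.21 without control replicate 2, in which muscle markers were highest. The median of all genes tested was -0.03, -0.02, 0.06 and 0.06 in the same order.

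**Figure D1:**
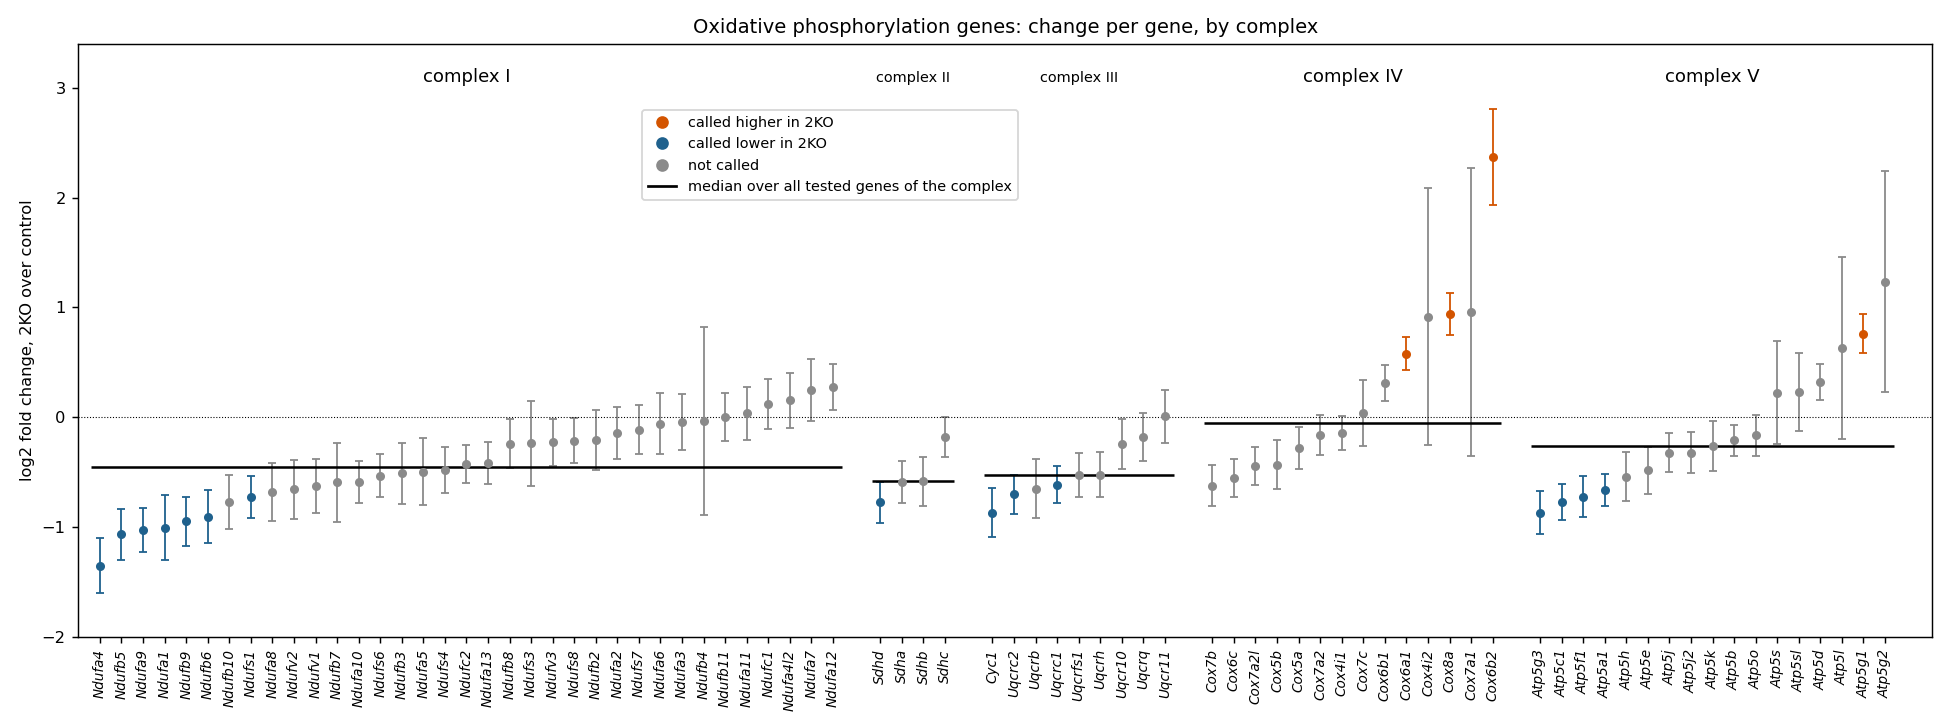
Log2 fold change, 2KO over control, of 79 of the 80 tested genes, ordered within each complex; bars are standard errors of the fit, the black line is the median over all tested genes of the complex, and colours mark genes called lower or higher. Medians lie at -0.45, -0.59, -0.53, -0.05 and -0.26 for complexes I to V, and 3 of the 4 genes called higher belong to complex IV.

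Complex I, the NADH dehydrogenase, was taken by symbol, and 8 of its 36 tested genes were lower in the 2KO-labelled libraries. Its 37 genes summed to 1123 and 1255 CPM, against 1540.2 and 1822 CPM in the control libraries. These 37 include Ndufa4, which was called lower, and Ndufa4l2, both now placed in complex IV. The median log2 fold change was -0.45, with 30 of 36 negative. No gene of the complex was called higher by edgeR, DESeq2 or limma-voom. At an unadjusted p under 0.05 (edgeR) 0 were higher and 17 lower. The share of all genes tested at that unadjusted p is not given, so these counts have no base to be read against. The genes that fell came from every part of the enzyme. In the arm that oxidises NADH, Ndufs1, the largest core subunit with iron-sulfur clusters, was at 38.1 and 34.5 CPM in 2KO-labelled libraries, against 62.8 and 57.3 CPM in the control libraries (log2 fold change -0.73 ± 0.191 SE, adjusted p = 0.0325). The groups did not overlap, and it was the 1 of 10 tested genes of this arm that fell. The call ended without 2KO replicate 1 (-0.80, adjusted p = 0.0758), 2KO replicate 2 (-0.67, 0.164) or control replicate 1 (-0.64, 0.0627). In the part that reduces ubiquinone, Ndufa9, an accessory subunit at the foot of that arm, was at 31.1 and 41.2 CPM, against 72.0 and 75.3 CPM in the control libraries (-1.03 ± 0.201 SE, adjusted p = 0.00857). Both 2KO-labelled libraries stood clear of the control libraries, and all 6 genes of this part had a negative log2 fold change.

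Genes of the membrane arm of complex I fell as well. Ndufa1, a small X-linked subunit of its proximal part, was at 14.7 and 14.4 CPM in 2KO-labelled libraries, against 21.6 and 37.1 CPM in the control libraries (-1.01 ± 0.296 SE, adjusted p = 0.0496). This call lay at the threshold and was lost under 12 of 17 alternative analyses, among them those without 2KO replicate 1 (-1.02, adjusted p = 0.0751), 2KO replicate 2 (-1.0, 0.0806) and control replicate 2 (-0.56, 0.281). In the distal part, Ndufb5 was at 36.2 and 46.1 CPM, against 68.9 and 104 CPM in the control libraries (-1.07 ± 0.230 SE, adjusted p = 0.0135). Ndufb9, also an accessory subunit there, was at 53.4 and 60.4 CPM, against 85.6 and 135 CPM in the control libraries (-0.95 ± 0.220 SE, adjusted p = 0.0190). The groups did not overlap for either, and control replicate 2 was the highest library for both; without it the Ndufb9 call ended (-0.58, adjusted p = 0.0649, edgeR). Ndufb6 was at 24.5 and 17.9 CPM, against 37.4 and 42.1 CPM in the control libraries (-0.91 ± 0.241 SE, adjusted p = 0.0338), although 28.2% of the 100-base windows of its transcript also occur in the overlapping gene Smim27. Its call ended without 2KO replicate 2 (-0.70, adjusted p = 0.207) or control replicate 2 (-0.81, 0.0522). Ndufb10, the gene nearest to a call, was at 24.5 and 22.7 CPM, against 33.2 and 47.6 CPM in the control libraries (-0.77 ± 0.242 SE, adjusted p = 0.0618). Taken by core function, the 7 core subunits summed to 205 and 248 CPM, against 339 and 341 CPM in the control libraries, with a median log2 fold change of -0.63. The 29 tested genes outside the core, with Ndufa4 and Ndufa4l2 among them, had a median of -0.43. The difference between these sets was not tested.

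The lowest log2 fold change of the 80 tested genes was that of Ndufa4, on chromosome 6 (11900292 to 11907497, mm10). It was at 32.2 and 47.8 CPM in 2KO-labelled libraries, against 80.7 and 124 CPM in the control libraries, a log2 fold change of -1.35 ± 0.250 SE (adjusted p = 0.00657). Its product carries a complex I name but is now placed in complex IV. The related Ndufa4l2, a paralog known for its induction in low oxygen, was at 79.6 and 57.7 CPM, against 77.0 and 46.5 CPM, so that its groups overlapped (0.15 ± 0.251 SE, adjusted p = 0.750). Per length, in the authors' FPKM, Ndufa4l2 made up 53.4% and 34.3% of the pair in the 2KO-labelled libraries, against 32.3% and 17.1% in the control libraries. The share in 2KO replicate 2 stood close to that in control replicate 1. The 2 transcripts have no identical stretch of the coding sequence longer than 28 bases, shorter than the 100-base reads.

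Complex II, the succinate dehydrogenase that also serves the citric acid cycle, had a negative log2 fold change for all 4 genes, and 1 passed the test. Sdhd, a small membrane anchor, was at 37.9 and 41.6 CPM in 2KO-labelled libraries, against 74.2 and 62.2 CPM in the control libraries (-0.78 ± 0.191 SE, adjusted p = 0.0245). Its groups did not overlap, but the call ended without 2KO replicate 1 (-0.72, adjusted p = 0.117) or control replicate 1 (-0.62, 0.0601). Sdha, the flavoprotein that binds succinate, was at 98.4 and 72.4 CPM, against 141 and 116 CPM (-0.59 ± 0.193 SE, adjusted p = 0.0718). Sdhc, the other anchor and the most abundant of the 4 per length, was at 124 and 128 CPM, against 120.2 and 166 CPM in the control libraries (-0.18 ± 0.182 SE, adjusted p = 0.576), with overlap. Summed, the complex stood at 286 and 271 CPM, against 380.1 and 379.9 CPM in the control libraries.

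Complex III, which passes electrons from ubiquinol to cytochrome c, had 3 of 9 genes lower and a median log2 fold change of -0.53. Cyc1, the cytochrome c1 subunit that hands electrons to cytochrome c, was at 66.0 and 76.6 CPM in 2KO-labelled libraries, against 99.3 and 162 CPM in the control libraries (-0.87 ± 0.225 SE, adjusted p = 0.0302). Without control replicate 2 the Cyc1 value was -0.47 and the call ended (adjusted p = 0.134). Uqcrfs1, the Rieske iron-sulfur protein and the gene nearest to a call here, was at 36.9 and 44.4 CPM, against 52.8 and 64.7 CPM in the control libraries (-0.53 ± 0.203 SE, adjusted p = 0.116). The core proteins, which form the matrix-facing base of the complex, both fell. Uqcrc2 was at 65.6 and 68.8 CPM, against 96.6 and 123 CPM in the control libraries (-0.70 ± 0.180 SE, adjusted p = 0.0289), and 22.7% of its 100-base windows also occur in Pdzd9, which stayed under 1.14 CPM in every library. Uqcrc1 was at 94.8 and 113 CPM, against 146 and 173 CPM in the control libraries (-0.62 ± 0.171 SE, adjusted p = 0.0403). The Uqcrc2 call was lost in 7 of 17 alternative analyses, among them those without 2KO replicate 1 (-0.67, adjusted p = 0.101), 2KO replicate 2 (-0.75, 0.0591) and control replicate 2 (-0.52, 0.0939). The Uqcrc1 call was lost in 6, among them those without 2KO replicate 1 (-0.50, adjusted p = 0.244) and control replicate 2 (-0.48, 0.0964). In all 3 genes that fell the 2KO-labelled libraries lay below both control libraries and control replicate 2 was the highest. The 5 small subunits had a median log2 fold change of -0.25 and none of them passed the test by edgeR. Uqcr10, one of the 2 most abundant genes of the complex per length, was at 35.4 and 38.2 CPM in 2KO-labelled libraries, against 36.0 and 51.5 CPM in the control libraries, with overlap (-0.25 ± 0.227 SE, adjusted p = 0.530). Uqcrh, the other, was at 75.1 and 99.3 CPM, against 105 and 146 CPM in the control libraries, without overlap (-0.52 ± 0.207 SE, adjusted p = 0.125). In FPKM, Uqcrh was at 217 and 285, against 268 and 352 in the control libraries, and the groups overlapped. Summed, the complex stood at 459 and 521 CPM, against 619 and 829 CPM in the control libraries.

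Complex IV, cytochrome c oxidase, was the 1 complex whose sum was higher in the 2KO-labelled libraries, at 1227 and 1316 CPM, against 1186 and 1191 CPM in the control libraries; with total counts alone the groups overlapped, at 1199.9 and 1296 CPM, against 1174 and 1249 CPM. The sum was taken by symbol and leaves out Ndufa4 and Ndufa4l2, which are now placed in this complex. Together these had 112 and 106 CPM in 2KO-labelled libraries, against 158 and 170 CPM in the control libraries. With them added, the groups overlapped in CPM. Of the 14 tested genes of complex IV by symbol, 3 rose and 7 had a negative log2 fold change. Cox8a and Cox6a1, small subunits of the membrane part, carried the difference of the sum by symbol. Cox8a was at 231 and 303 CPM in 2KO-labelled libraries, against 158 and 120.2 CPM in the control libraries (0.94 ± 0.189 SE, adjusted p = 0.00988). Cox6a1 was at 246 and 258 CPM, against 175 and 163 CPM in the control libraries (0.58 ± 0.148 SE, adjusted p = 0.0294). In both, every 2KO-labelled library lay above every control library. Without these 2 genes the complex summed to 750.1 and 755 CPM in 2KO-labelled libraries, against 853 and 908 CPM in the control libraries. The Cox6a1 call ended under 6 of 17 alternative analyses, among them a correction for GC content and length (log2 fold change 0.31, adjusted p = 0.322) and those without 2KO replicate 1 (0.61, 0.0763) or 2KO replicate 2 (0.53, 0.143). The median over the 14 genes was -0.05. It was negative under all 4 scalings, from -0.10 to -0.0031, but 0.06 after that correction, between 0.18 and 0.19 on FPKM and 0.017 without control replicate 1.

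No gene of complex IV by symbol was called lower by edgeR. Of these genes 3 had an unadjusted p under 0.05 in that direction, again without a share over all genes. Ndufa4, counted under complex I by symbol but now placed in complex IV, was called lower. DESeq2 called 2 of the genes by symbol lower and limma-voom 1, beside 6.28% and 5.58% of all genes. Cox7b, nearest to the threshold, was at 85 and 77.0 CPM in 2KO-labelled libraries, against 106 and 144 CPM in the control libraries (-0.63 ± 0.187 SE, adjusted p = 0.0523). Cox4i1, whose product sits at the core of the nuclear part, was at 212 and 214 CPM, against 257 and 213 CPM (-0.14 ± 0.155 SE, adjusted p = 0.602). Its 2KO-labelled libraries thus stood near control replicate 2 and below control replicate 1. For ratios of their summed CPM the complexes were taken by symbol as well. The ratio of complex IV to complex I was 1.09 and 1.05 in the 2KO-labelled libraries, against 0.770 and 0.654 in the control libraries. The ratio to complex III was 2.67 and 2.53, against 1.92 and 1.44 in the control libraries. Both ratios were without overlap between the groups; with 2 libraries each, the smallest two-sided p that an exact permutation test of a ratio can give is 0.333, and the differences between complexes were not tested.

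**Figure D2:**
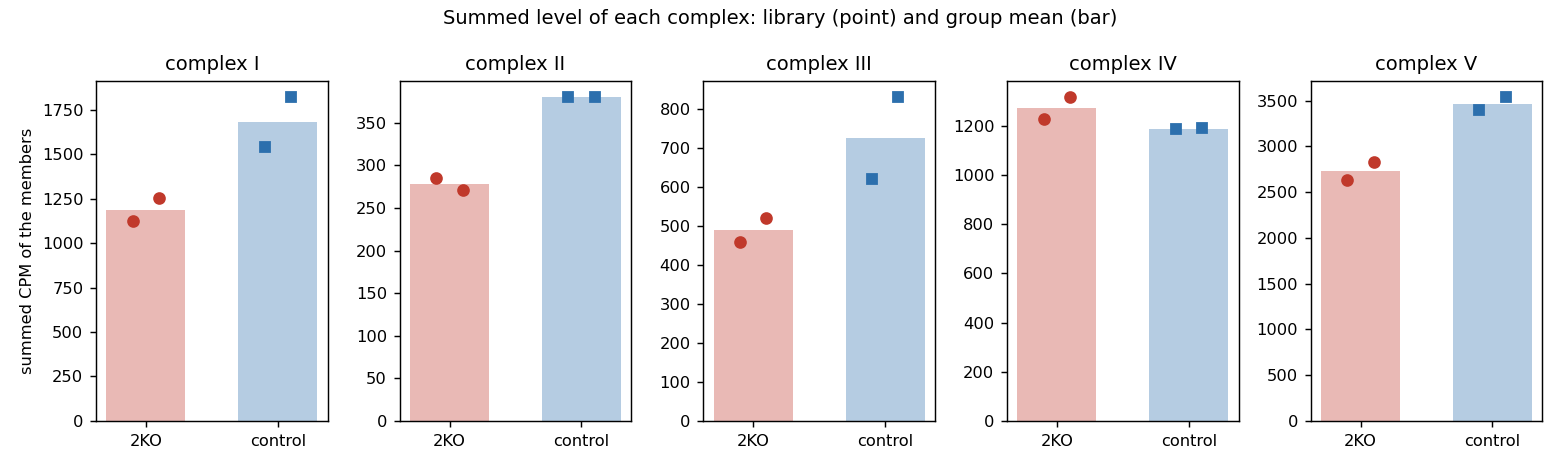
Summed CPM of the genes of each complex, with 1 panel per complex and axes that start at 0; points are the 2KO-labelled libraries and the control libraries, and bars are group means. Both 2KO points lie below both control points for complexes I, II, III and V. For complex IV, taken by symbol, they lie above under all scalings but total counts, at 1227 and 1316 CPM against 1186 and 1191 CPM.

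The largest rise was that of a paralog known from testis. Cox6b2, the testis form of the subunit near the cytochrome c docking site, lies on chromosome 7 (4751792 to 4753094, minus strand, mm10). It had 579 and 405 counts in the 2KO-labelled libraries, against 150 and 48 counts in the control libraries, or 32.8 and 20.0 CPM, against 7.35 and 2.81 CPM. This is a log2 fold change of 2.37 ± 0.437 SE (adjusted p = 0.00649), or 5.16-fold. The groups did not overlap, but both spread about their means, and the log2 fold change was 3.25 without control replicate 1, 1.85 without control replicate 2, 1.97 without 2KO replicate 1 and 2.67 without 2KO replicate 2. Its widely expressed partner Cox6b1 was at 98.4 and 96.5 CPM, against 76.3 and 81.2 CPM in the control libraries (0.31 ± 0.164 SE, adjusted p = 0.254). Per length, in FPKM, Cox6b2 made up 23.4% and 16.5% of the pair in the 2KO-labelled libraries, against 7.53% and 3.54% in the control libraries. The coding sequences share no identical stretch longer than 14 bases, less than the length of a read.

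Of the other restricted forms of complex IV subunits none was abundant. Cox4i2, the form known from lung, was at 0.907 and 3.76 CPM in 2KO-labelled libraries, against 0.147 and 2.35 CPM in the control libraries (adjusted p = 0.669). Cox7a1, the heart and muscle form, was at 2.10 and 0.544 CPM, against 1.27 and 0.0586 CPM in the control libraries (adjusted p = 0.691). Both varied more within a group than between the groups. The muscle form Cox6a2 had 13 counts in control replicate 2, where muscle markers were highest, and at most 2 in the other libraries. Cox7a2, the widely expressed partner of Cox7a1, was at 59.7 and 61.0 CPM, against 62.9 and 72.3 CPM in the control libraries (-0.16 ± 0.179 SE, adjusted p = 0.606).

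**Figure D3:**
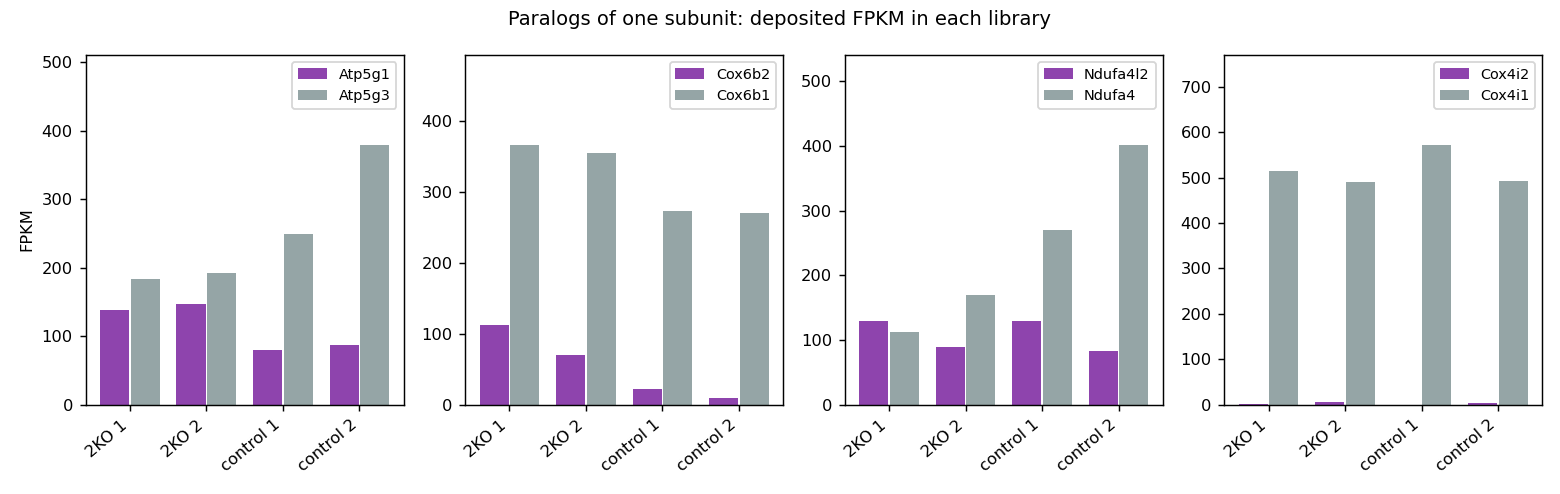
Deposited FPKM of 4 pairs of paralogs in each library, with the 2KO-labelled libraries left of the control libraries. Atp5g1 makes up 42.8% and 43.4% of its pair in the 2KO-labelled libraries, against 24.1% and 18.8% in the control libraries, while Cox4i2 is near 0 in all 4.

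Complex V, the ATP synthase, made up the greatest share of the reads of these genes, with 2638 and 2832 CPM in 2KO-labelled libraries, against 3394 and 3539 CPM in the control libraries. Of its 17 genes 4 fell and 1 rose, and the median log2 fold change was -0.26. Atp5s and Atp5sl carry the symbol but are not subunits of the enzyme, and the median over the other 15 genes was -0.32. In the catalytic head, Atp5a1, the alpha subunit, was at 594 and 632 CPM in 2KO-labelled libraries, against 873 and 1075 CPM in the control libraries (-0.67 ± 0.146 SE, adjusted p = 0.0146). Atp5c1, the gamma subunit that turns inside the head, was at 119.7 and 117 CPM, against 182 and 222 CPM in the control libraries (-0.77 ± 0.162 SE, adjusted p = 0.0122). Both fell without overlap. Atp5b, the catalytic beta subunit and one of the most abundant of the complex per length, was at 1091 and 1166 CPM, against 1434 and 1180.3 CPM in the control libraries (-0.21 ± 0.139 SE, adjusted p = 0.359), so that 2KO replicate 2 stood next to control replicate 2. Atp5f1, subunit b of the stalk that holds the head still, was at 45.7 and 43.6 CPM, against 67.0 and 80.7 CPM in the control libraries (-0.73 ± 0.187 SE, adjusted p = 0.0299). The Atp5f1 call ended without 2KO replicate 1 (-0.76, adjusted p = 0.0790), 2KO replicate 2 (-0.70, 0.116) or control replicate 2 (-0.58, 0.0863). Atp5h, another subunit of that stalk, was at 48.2 and 52.4 CPM, against 57.0 and 89.6 CPM (-0.54 ± 0.225 SE, adjusted p = 0.142). Atp5k, a small membrane subunit, was at 46.7 and 56.1 CPM, against 48.5 and 74.9 CPM, with overlap (adjusted p = 0.505).

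**Figure D4:**
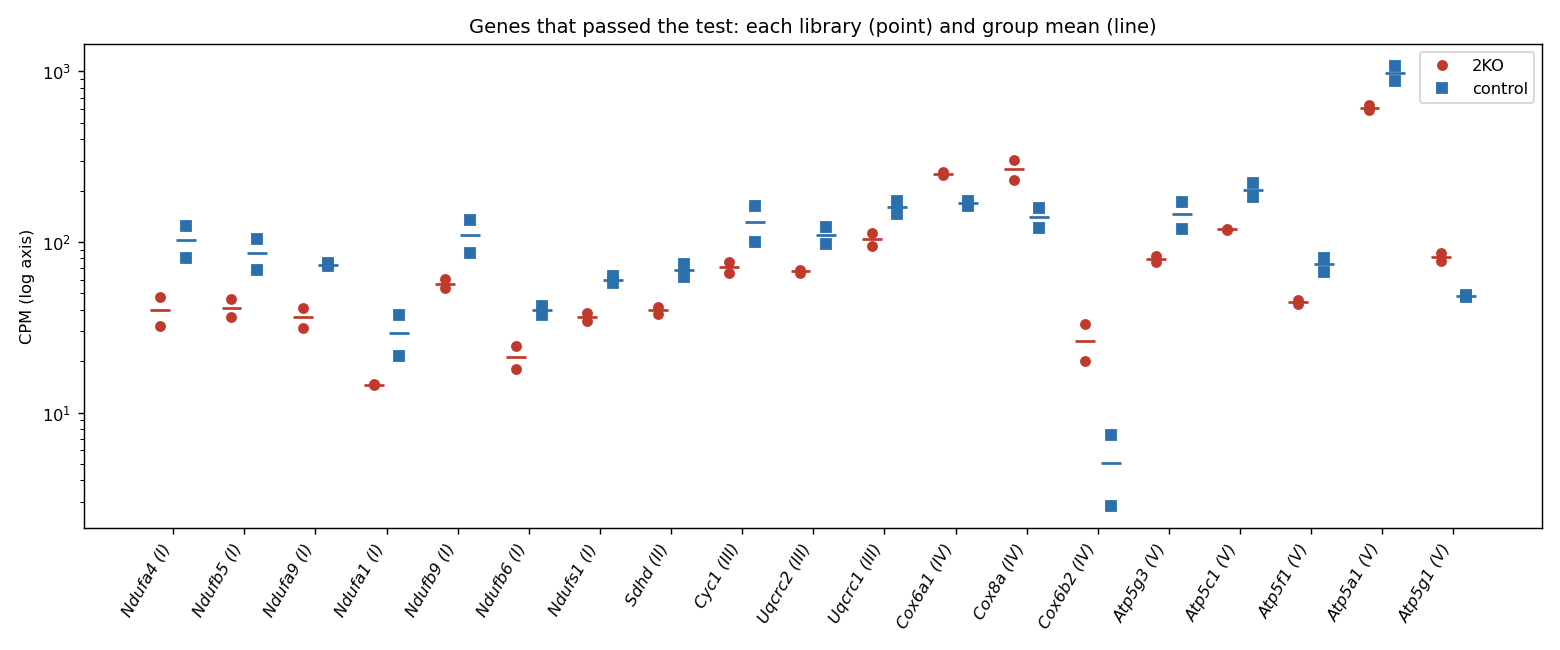
CPM, on a log axis, of 19 of the 20 genes that passed the test, with each library as a point, group means as lines, and the complex in parentheses. For each of the 19 the 2KO-labelled libraries do not overlap the control libraries, which their choice by the test makes likely. Cox6b2, Cox6a1, Cox8a and Atp5g1 are the 4 that lie above. Of all genes tested, 28.7% lay below in both 2KO-labelled libraries and 29.0% above.

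Among the genes for the c subunit, Atp5g1 and Atp5g3 moved in opposite directions. Atp5g1, Atp5g2 and Atp5g3 encode the same mature c subunit behind different targeting peptides, and their products share the c ring. Atp5g3, on chromosome 2 (73908447 to 73911326, mm10), was at 76.7 and 82.4 CPM in 2KO-labelled libraries, against 118 and 173 CPM in the control libraries (-0.87 ± 0.197 SE, adjusted p = 0.0173). Atp5g1, on chromosome 11 (96068852 to 96075670), was at 76.8 and 85.9 CPM, against 47.3 and 48.9 CPM in the control libraries (0.76 ± 0.178 SE, adjusted p = 0.0199). Neither gene's groups overlapped. The Atp5g3 call ended without control replicate 2 (-0.57, adjusted p = 0.0508) and the Atp5g1 call without 2KO replicate 2 (0.67, adjusted p = 0.123). Per length, in FPKM, Atp5g1 made up 42.8% and 43.4% of the sum of the 2 genes in the 2KO-labelled libraries, against 24.1% and 18.8% in the control libraries. That sum was 322 and 339 FPKM in the 2KO-labelled libraries, against 329 and 466 FPKM in the control libraries, with overlap. The third gene, Atp5g2, had 26 and 39 counts, against 8 and 18 counts in the control libraries (adjusted p = 0.472), and is listed at 0 FPKM in all 4 libraries.

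The ends of the 3 coding sequences, 90 bases before the stop codon, are shown because they encode the same stretch of the mature c subunit and yet are told apart by reads. They were read from the GENCODE transcripts on GRCm38, the assembly also named mm10, and capitals mark the bases that differ from Atp5g1.
Atp5g1, end of the coding sequence: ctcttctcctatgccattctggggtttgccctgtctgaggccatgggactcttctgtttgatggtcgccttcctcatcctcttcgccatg
Atp5g3, end of the coding sequence: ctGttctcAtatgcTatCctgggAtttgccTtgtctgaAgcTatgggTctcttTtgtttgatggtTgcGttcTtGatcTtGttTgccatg
Atp5g2, end of the coding sequence: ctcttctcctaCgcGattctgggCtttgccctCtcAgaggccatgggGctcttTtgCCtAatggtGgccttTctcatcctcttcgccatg
Atp5g3 differed from Atp5g1 at 17 of these 90 bases and Atp5g2 at 12. Over the whole coding sequences Atp5g1 and Atp5g3 share no identical stretch longer than 11 bases, so a 100-base read from the coding sequence of one does not match the other along its length. Other copies are closer: 57.3% of the 100-base windows of Atp5g1 also occur in Gm10039, and all of those of Atp5g2 occur in Gm10175 or Gm10231. The level of Atp5g2, and in part that of Atp5g1, is uncertain to that extent, and Atp5g3 shared no window with another gene.

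Promoters are shown for the 4 genes that rose and, from those that fell, for the c subunit partner Atp5g3 and for Sdhd. Each is 250 bases before to 50 bases after the RefSeq start on GRCm38.p6, and RefSeq held such a window for 69 of the 85 genes. Capitals mark matches, on either strand, to GCGCA, any base and GCGC (bound by NRF1), CCGGAAG (by GABP and other ETS factors), AAGATGGCG (YY1), CACGTG (the E-box) or GGCGGGA (E2F).
Cox6b2 promoter, chr7:4753045-4753344, minus strand: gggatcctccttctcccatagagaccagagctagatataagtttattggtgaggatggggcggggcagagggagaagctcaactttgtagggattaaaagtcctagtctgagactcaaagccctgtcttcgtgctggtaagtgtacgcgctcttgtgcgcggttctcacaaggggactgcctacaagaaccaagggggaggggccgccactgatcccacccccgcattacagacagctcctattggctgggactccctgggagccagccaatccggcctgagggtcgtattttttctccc
Cox8a promoter, chr19:7217567-7217866, minus strand: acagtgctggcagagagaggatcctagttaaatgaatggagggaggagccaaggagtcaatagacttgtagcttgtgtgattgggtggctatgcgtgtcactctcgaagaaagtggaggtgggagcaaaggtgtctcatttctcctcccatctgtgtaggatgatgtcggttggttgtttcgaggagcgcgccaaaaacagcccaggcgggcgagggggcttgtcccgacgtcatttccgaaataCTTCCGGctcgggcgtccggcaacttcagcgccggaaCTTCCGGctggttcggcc
Cox6a1 promoter, chr5:115348909-115349208, minus strand: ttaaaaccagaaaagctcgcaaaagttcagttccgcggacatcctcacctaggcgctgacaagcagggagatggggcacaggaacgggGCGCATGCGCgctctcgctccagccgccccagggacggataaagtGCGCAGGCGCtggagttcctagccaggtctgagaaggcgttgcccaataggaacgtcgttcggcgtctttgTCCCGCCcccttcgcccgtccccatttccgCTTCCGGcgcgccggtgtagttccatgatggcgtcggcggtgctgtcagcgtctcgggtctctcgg
Atp5g1 promoter, chr11:96075582-96075881, minus strand: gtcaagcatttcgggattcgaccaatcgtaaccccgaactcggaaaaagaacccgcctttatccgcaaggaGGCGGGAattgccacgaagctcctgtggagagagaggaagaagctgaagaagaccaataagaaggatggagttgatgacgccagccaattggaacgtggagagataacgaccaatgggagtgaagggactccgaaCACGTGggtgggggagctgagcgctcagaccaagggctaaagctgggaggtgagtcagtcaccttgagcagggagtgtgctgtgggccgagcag
Atp5g3 promoter, chr2:73911277-73911576, minus strand: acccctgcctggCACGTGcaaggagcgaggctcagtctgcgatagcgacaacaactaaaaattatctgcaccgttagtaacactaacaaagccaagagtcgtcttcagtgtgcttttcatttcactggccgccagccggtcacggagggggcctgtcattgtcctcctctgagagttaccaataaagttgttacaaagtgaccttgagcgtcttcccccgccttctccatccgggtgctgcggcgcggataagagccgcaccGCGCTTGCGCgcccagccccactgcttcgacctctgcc
Sdhd promoter, chr9:50603800-50604099, minus strand: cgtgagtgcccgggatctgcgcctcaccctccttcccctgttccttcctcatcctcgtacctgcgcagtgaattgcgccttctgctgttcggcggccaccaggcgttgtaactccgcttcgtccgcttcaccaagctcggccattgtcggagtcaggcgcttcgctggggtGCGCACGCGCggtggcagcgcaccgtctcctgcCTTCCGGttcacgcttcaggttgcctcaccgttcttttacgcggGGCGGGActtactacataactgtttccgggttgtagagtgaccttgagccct
Cox6a1 held 2 NRF1 matches, 162 and 117 bases before the start, with an E2F and a GABP match nearer to it. Cox8a held 2 GABP matches, 5 bases before and 32 after the start. Atp5g1 held an E2F and an E-box match, 179 and 44 bases before the start, and Atp5g3 an E-box match 238 bases before and an NRF1 match 12 bases after it. Sdhd held NRF1, GABP and E2F matches. The window of Cox6b2 held none of the 5 motifs, and in the windows shown no match overlapped another. Shares were counted by gene, and a gene with several windows counted if any held a match. NRF1 matches were found for 17 of the 69 genes (24.6%) and for 5.19% of all 27025 genes with a RefSeq window, expressed or not. GABP matches were found in 23.2% of the 69 and 9.93% of all, and YY1 matches in 11.6% and 1.64%. E2F matches were found in 20.3% of the 69 and 12.8% of all, and E-box matches in 10.1% and 8.09%. The 16 tested genes with an NRF1 match had a median log2 fold change of -0.52, with 4 lower and 1 higher, and the 50 tested genes with a promoter and no such match had a median of -0.26, with 6 lower and 3 higher. With a GABP match the median was -0.29, and without one -0.30. For YY1 the medians with and without a match were -0.32 (8 genes) and -0.27 (58), for E2F -0.32 (13) and -0.28 (53), and for the E-box 0.23 (7) and -0.32 (59). These are descriptions of the sequences, and the difference between the sets was not tested.

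Transcripts of the 4 genes that rose were 465 to 596 bases long with a GC content of 56.1% to 58.8%. The 16 that fell ranged more widely, from 419 to 2590 bases (median 1338) and from 44.1% to 57.5% GC (median 48.8%), and Ndufa1 among them is shorter than every gene that rose. The 59 that were not called had a median length of 758 bases and a median GC content of 52.5%. Among all genes tested the log2 fold change itself went with GC content: its median was -0.15 in genes under 45% GC and 0.25 in those of 55% and over. The genes of oxidative phosphorylation lay below all genes in every band, at -0.63 (9 genes) under 45%, -0.55 (19) from 45% to 50%, -0.23 (24) from 50% to 55% and -0.18 (27) at 55% and over. After a fit with an offset for GC content and length, the median was -0.35 for these genes and -0.14 for all genes, a difference of -0.21 in place of -0.33. Of these genes 19 then fell and 3 rose, beside 8.22% and 5.07% of all genes. Without the offset the shares of all genes were 4.92% and 7.00%. Over the 79 tested genes with a value, Spearman's rho between log2 fold change and GC content was 0.404, and over all genes tested it was 0.200. These are correlations across genes of the same 4 libraries, and genes are not independent replicates.

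**Figure D5:**
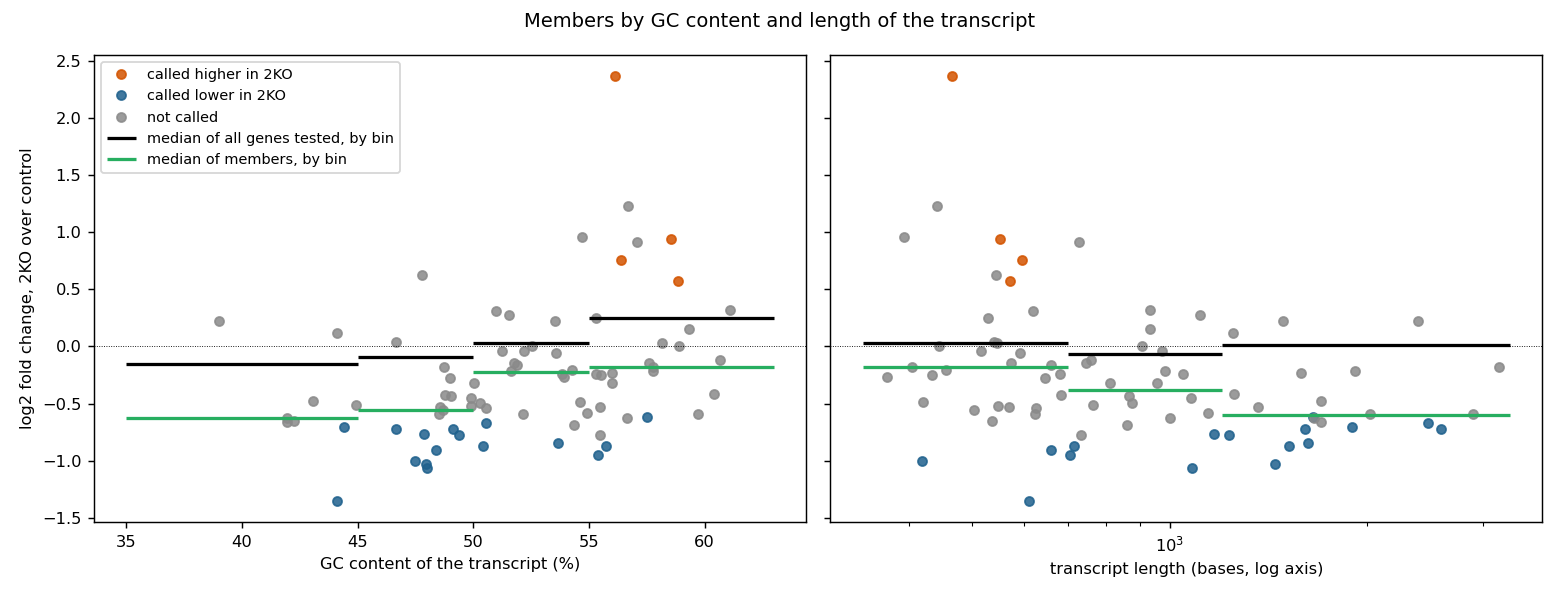
Log2 fold change, 2KO over control, of the tested genes against the GC content and the length (log axis) of their transcripts; green lines are medians of these genes by band and black lines medians of all genes tested. The green lines lie below the black ones in every band, from -0.63 against -0.15 under 45% GC to -0.18 against 0.25 at 55% and over.

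Some levels could not be assigned with certainty. Of the 16 genes that fell, 9 have exons that overlap those of another annotated gene, and of the 4 that rose, 0, beside 27 of all 80 tested; whether counting used strand is not given. The 53 tested genes without such overlap had a median log2 fold change of -0.32, equal to that of all 80 within rounding. For 8 of 84 genes with a transcript, 25% or more of the 100-base windows occur in another gene. They include Cox7c, Atp5l, Atp5h, Ndufb4 and Ndufs5. Ndufs5, with 0 counts, shares 27% of its windows with BC002163, which was at 9.46 and 10.04 CPM in 2KO-labelled libraries, against 19.1 and 18.8 CPM in the control libraries (log2 fold change -0.96, adjusted p = 0.0527). Across 17 alternative analyses Ndufa9 and Cox6b2 kept their calls in 16, Ndufa4 and Atp5g1 in 15, Cox6a1, Atp5f1, Ndufs1 and Uqcrc1 in 11, Uqcrc2 in 10 and Ndufa1 in 5, and the other called genes in 12 to 14.

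The genes around the chain were followed in lists of known function. Of the 16 tested genes of electron carriers and nucleotide exchange 3 fell, and all 16 had a negative log2 fold change, with a median of -0.54. Etfa, a subunit of the flavoprotein that brings electrons from fatty acid oxidation, was at 73.6 and 73.1 CPM in 2KO-labelled libraries, against 164 and 155 CPM in the control libraries (-1.12 ± 0.158 SE, adjusted p = 0.00131). Gpd2, the glycerol phosphate dehydrogenase of the inner membrane, was at 63.1 and 64.4 CPM, against 133 and 111 CPM (-0.94 ± 0.173 SE, adjusted p = 0.00645). Slc25a4, the ADP and ATP carrier of muscle and heart, was at 133 and 126 CPM, against 188 and 209 CPM (-0.62 ± 0.154 SE, adjusted p = 0.0265). All 3 were lower without overlap, which their choice by the test makes likely.

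Of the 18 genes of pyruvate dehydrogenase and the citric acid cycle 3 fell, with a median log2 fold change of -0.41 over the list. Pdhx, which anchors a subunit of pyruvate dehydrogenase, was at 9.63 and 15.6 CPM in 2KO-labelled libraries, against 25.7 and 38.9 CPM in the control libraries (-1.35 ± 0.312 SE, adjusted p = 0.0188). Dld, the dihydrolipoamide dehydrogenase shared by several such complexes, was at 90.8 and 76.8 CPM, against 136 and 136 CPM (-0.70 ± 0.165 SE, adjusted p = 0.0209). Fh1, fumarate hydratase, was at 28.1 and 31.4 CPM, against 44.3 and 55.9 CPM (-0.75 ± 0.214 SE, adjusted p = 0.0436). Again no group overlapped the other, which the choice of these genes by the test makes likely.

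Of the 45 tested assembly factors of the complexes 1 rose and 2 fell, with a median of -0.34. Cox17, the copper chaperone of complex IV, was at 11.5 and 9.25 CPM in 2KO-labelled libraries, against 18.7 and 23.3 CPM in the control libraries (-1.02 ± 0.291 SE, adjusted p = 0.0452). Acad9, which helps to assemble complex I, was at 15.5 and 15.1 CPM, against 27.7 and 33.4 CPM (-1.0 ± 0.246 SE, adjusted p = 0.0250). Cox18, an inserter of a complex IV subunit into the membrane, moved the other way, at 23.5 and 21.5 CPM, against 12.1 and 10.7 CPM in the control libraries (0.98 ± 0.272 SE, adjusted p = 0.0394). Of 78 mitochondrial ribosomal proteins, which make the mitochondrially encoded subunits, Mrpl52 rose (0.93, adjusted p = 0.0135) and Mrps7 fell (-0.88, adjusted p = 0.0324), and the median was -0.24. Shares called lower were thus 18.8%, 16.7%, 4.44% and 1.28% in these 4 lists, beside 4.92% of all genes tested.

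Of the 19 regulators of mitochondrial biogenesis 1 rose, and the median log2 fold change was -0.02. Pprc1, a coactivator related to PGC-1 alpha, was at 146 and 149 CPM in 2KO-labelled libraries, against 96.3 and 68.8 CPM in the control libraries (0.84 ± 0.187 SE, adjusted p = 0.0165). Its groups did not overlap. Nrf1, Gabpa and Yy1, whose motifs were counted above, did not pass the test. Nrf1 was at 49.2 and 40.1 CPM, against 41.6 and 38 CPM (adjusted p = 0.655, edgeR). Gabpa was at 170.2 and 149.9 CPM, against 177 and 164 CPM (adjusted p = 0.762, edgeR). Yy1 was at 87.7 and 101 CPM, against 82.9 and 70.8 CPM, without overlap (adjusted p = 0.313, edgeR). The list held no factor for the E2F or E-box motif. Ppargc1a, which encodes PGC-1 alpha, was at 45.1 and 31.9 CPM, against 5.0 and 22.6 CPM in the control libraries (1.49 ± 0.511 SE, adjusted p = 0.0848). It lay above both control libraries in both 2KO-labelled libraries, but the control libraries were far apart. Ppargc1a, Nrf1, Gabpa and Yy1 were named after their values were seen.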

How the data were processed

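RNA from EpCAM-positive sorted cells, 15 ng per sample, was reverse transcribed, amplified and sequenced as 100-nucleotide single reads, per the labels' protocols. For each gene and library the authors deposited a read count, in whole numbers, and an FPKM value. The submitters' processing notes name build mm10 and the tools TopHat2 2.0.13, HTSeq 0.6.1, Cufflinks 2.2.1 and DESeq2 1.6.3. The gene annotation, the strand setting and the tool behind each column were not given in the sources used here. Amplified reads are not independent molecules.

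Group differences were tested on the counts in R 4.3.3 with edgeR 4.0.16 (filterByExpr with the group, TMM scaling, two-sided quasi-likelihood test of 2KO against control, no covariates). P-values were adjusted by Benjamini-Hochberg across every gene tested, and an adjusted p under 0.05 was called. The biological coefficient of variation was 0.313. Within groups, replicates differed beyond sampling noise, with a chi-square of 22.7 (2KO) and 28.7 (control) per degree of freedom. FPKM served for levels per length and, as log2(FPKM + 1) or log2(FPKM + 0.1), for an alternative with limma 3.58.1. Other alternatives were RLE, upper-quartile and total-count scaling, limma-voom, DESeq2 1.42.0, changed filters, a replicate block, a GC content and length offset (mgcv 1.9.3), library sizes without the 3 genes of the most counts, and each library left out. The steps were tested on simulated counts.

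The members and the lists were chosen with earlier results of these data known. Named genes are the called members, the 2 of highest FPKM and the uncalled one of lowest adjusted p per complex, isoform pairs, the c subunit genes and up to 4 called genes per list; others were named after their values were seen. Mitochondrially encoded genes were not analysed here, and the values of 1 called member are not reported here.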

Additional observations from a re-analysis of the deposited data

How the results depend on the processing

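With 2 libraries per group, counts of calls moved with single libraries, while directions of most medians did not. The count of members called lower was 14 to 23 under other scalings, filters, DESeq2, limma-voom and the offset, and 10 to 25 with a library left out; called higher it was 3 or 4, and 2 to 5 with a library left out. Across those scalings, filters, DESeq2, limma-voom and the offset, the share of all genes called lower ran from 3.98% to 8.22%. The share called higher ran from 5.07% to 8.85%. Both shares also moved with a library left out. How much of the spread in these counts is particular to the members was not tested. On log2(FPKM + 1) limma called 3 lower and 2 higher, beside 2.07% and 5% of all genes. On log2(FPKM + 0.1) it called 1 and 2, beside 1.48% and 3.76%. On log2(FPKM + 1) without a filter it called 0 and 0, and 0 of all genes. There 28 members had an unadjusted p under 0.05 (limma), a count given without its share over all genes. The cause of these lower counts was not tested. Of the 16 called lower, 9, 11, 14 and 8 kept the call without 2KO replicate 1, 2KO replicate 2, control replicate 1 and control replicate 2; of the 4 called higher, 3, 2, 4 and 4 did.

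The median log2 fold change of the members ranged from -0.42 to -0.21 with a library left out. For complex I it ranged from -0.52 to -0.24 and was -0.33 on log2(FPKM + 1), with or without a filter. For complex II it ranged from -0.72 to -0.40 and was -0.46 on both. For complex III it ranged from -0.71 to -0.37, and for complex V from -0.41 to -0.14. For complex IV it ranged from -0.17 to 0.017. It was -0.0031 with upper-quartile scaling, -0.10 with total counts and 0.058 with the GC content and length offset. It was 0.18, 0.19 and 0.18 on log2(FPKM + 1), log2(FPKM + 0.1) and log2(FPKM + 1) without a filter. With Ndufa4 and Ndufa4l2 counted in complex IV and Cox7a2l left out of it, the median was 0.036. Its sign thus turned with the setting. The offset moved the median of all genes to -0.14.

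Uncalled members changed sign in a few settings. With a library left out, the log2 fold change ranged from -0.52 to 0.088 for Atp5k, from -0.27 to 0.022 for Cox4i1, from -0.46 to 3.93 for Cox4i2, from -0.30 to 4.36 for Cox7a1, from -0.16 to 0.59 for Ndufa4l2, from -0.37 to 0.078 for Sdhc and from -0.46 to 0.040 for Uqcr10. With the offset it was -0.17 for Ndufa4l2.

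Same-numbered libraries of the groups did not deviate together (correlation -0.023 over tested genes). With 2 libraries per group this cannot exclude a pairing, and the labels give no batch. With the replicate number as a block 19 members were lower and 4 higher, beside 5.74% and 7.54% of all genes tested. All 16 and 4 of the main calls were kept.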
